A study of Mus musculus with 10 samples.

Results

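Proteasome subunits, ubiquitin-conjugating enzymes and ubiquitin-specific proteases were followed in the RNA-seq libraries of both types of IT-PN (intratelencephalic projection neuron). Genes were taken by symbol from the deposited count table: those starting with Psma, Psmb, Psmc, Psmd, Psme or Ube2, and those made of Usp and a number, with or without further letters. This gave 139 of the 24453 genes in the table, of which 45 were proteasome genes, 38 were Ube2 genes and 56 were Usp genes.

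The libraries came from layer 5 of the right primary motor cortex of 5 male Fezf2-Gfp mice, hemizygous for the (Zfp312-EGFP)CO61GsatMmnc transgene on a Swiss Webster background, in which GFP is driven by regulatory elements of Fezf2. All 5 mice received fluorescent CTB (cholera toxin subunit B, a tracer taken up by axons) in the left motor cortex between postnatal days 23 and 25, with collection between days 28 and 32. From each animal, cells with GFP and CTB gave 1 Fezf2+ve library and cells with CTB only gave 1 Fezf2−ve library, so each type has 5 libraries.

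The ubiquitin system marks proteins for removal. An activating enzyme (E1) loads ubiquitin, a conjugating enzyme (E2, the Ube2 genes) carries it and a ligase (E3) attaches it to a target, while deubiquitinases such as the Usp enzymes take it off again. Tagged proteins are bound and unfolded by the 19S regulatory particle of the proteasome and cut inside its 20S core, and in neurons this turnover takes part in synapse development and plasticity.

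Reads counted on genes came to 118134, 107643, 118069, 151591 and 203379 in Fezf2+ve libraries 1 to 5, and to 167916, 89138, 168711, 211368 and 217738 in Fezf2−ve libraries 1 to 5. At this depth 3 reads stand for 13.8 to 33.7 CPM (reads scaled to the gene reads of the library), depending on the library. Floors and intervals cover counting error only, since the amplified reads carried no molecular identifiers. Fezf2 itself had 1 read, in Fezf2+ve library 5, so the types could not be checked against it at this depth, and the list genes Tbr1 and Crym had none. The 15 microglial marker genes examined were counted 33, 19, 12, 11 and 29 times in Fezf2+ve and 1239, 491, 1255, 446 and 880 times in Fezf2−ve libraries, and the ranges did not overlap. Their most abundant gene was Ctss, none of the 15 was at 0, and the part of these transcripts in any difference given here was not tested. Both types were sorted for CTB, a gate meant to keep only cells that took up the tracer. In bulk libraries, fewer cells of one kind and less RNA per cell cannot be told apart.

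Of the 139 genes, 119 had at least 1 read in some library and 20 had none. Only 6 had a read in all 10 libraries: Ube2k, Ube2l3, Usp24, Usp32, Usp48 and Usp49. The 139 genes together held 8354 reads, with a median of 11 reads per gene over the 10 libraries, beside a median of 2 for all genes of the table. The filter for testing, at least 10 CPM in at least 2 libraries, passed 75 of them: 22 proteasome, 22 Ube2 and 31 Usp genes. Of all genes, 7409 passed.

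**Figure D1:**
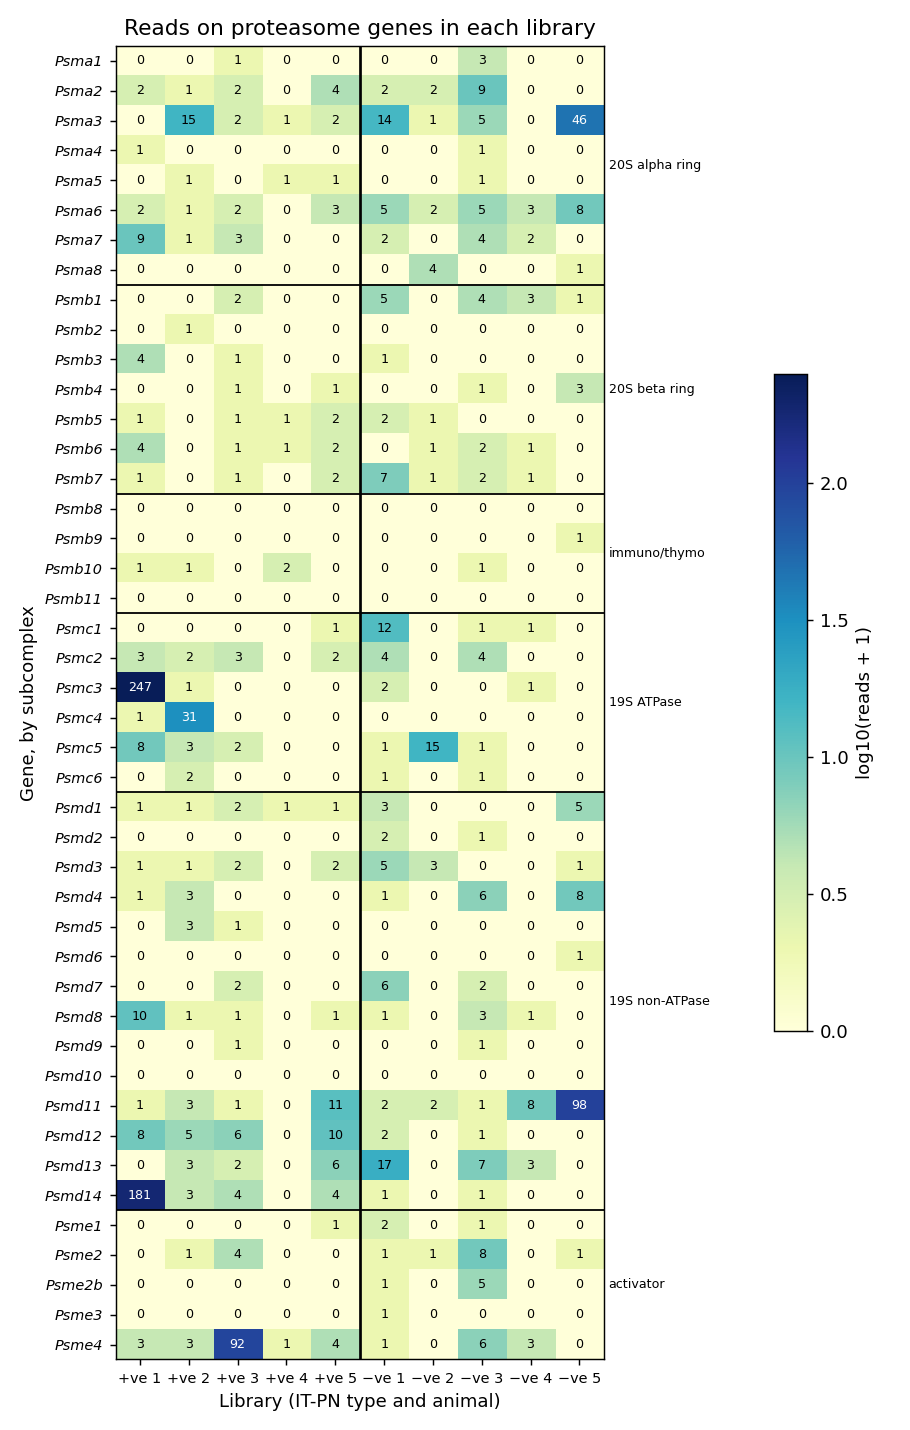
Reads on the proteasome genes (rows, grouped by subcomplex) in the 5 Fezf2+ve and 5 Fezf2−ve libraries (columns), with the read count printed in each cell and the colour giving log10(reads + 1). Most cells hold 0 to 10 reads, and the few dark cells, such as 247 reads on Psmc3 and 181 on Psmd14 in Fezf2+ve library 1, are each a single library of their gene.

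The comparison asks which of these genes differ between IT-PNs that express the Fezf2 reporter and those that do not. It used edgeR with a term for the animal, and Benjamini-Hochberg adjusted p-values over all 7409 genes. By edgeR, 0 of the 75 tested members had an adjusted p at or below 0.1, and 0% of all tested genes did. All 75 had an adjusted p of 0.998 in this edgeR test. At an unadjusted p under 0.05 there were 2 members, Psmd14 and Psmd12, both higher in Fezf2+ve libraries and both subunits of the 19S particle. Over all tested genes 3.89% reached this level (288 genes), 1.62% higher and 2.27% lower in Fezf2+ve libraries. Among the tested members the share was 2.67%. Without the animal block, edgeR called 3 members, Psmd14, Ube2k and Usp24, at an adjusted p at or below 0.1, beside 3.77% of all genes (279). DESeq2 with the block called 0 members, beside 1.32% of all genes (98), and gave an adjusted p to only 13 of the 75 members and 1664 of the 7409 genes.

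Psmd14 (also called Rpn11), on the plus strand of chromosome 2 from 61711694 to 61800376 (RefSeq, GRCm38, which is mm10), is the metalloprotease that removes ubiquitin chains as a substrate enters the core. It was counted 181, 3, 4, 0 and 4 times in Fezf2+ve and 1, 0, 1, 0 and 0 times in Fezf2−ve libraries. Fezf2+ve library 1 stood far above the rest, 3 others held 3 or 4 reads, and library 4, at 0, overlapped the Fezf2−ve libraries. The fit gave 5.01 ± 1.89 (log2 fold change ± standard error, edgeR adjusted p = 0.998, n = 5 animals), and the gene was higher in the Fezf2+ve library of 4 animals and at 0 in both libraries of animal 4. Without animal 1 the log2 fold change was 3.22, without animal 5 it was 4.93, and in both cases the unadjusted p was no longer under 0.05. Summed over libraries, the reads per gene read were 117 times as many in Fezf2+ve as in Fezf2−ve IT-PNs (exact 95% interval of counting error 32.1 to 977), a ratio that rests mostly on library 1. Without the block the edgeR log2 fold change was 6.70 (edgeR adjusted p = 0.0931), and the DESeq2 value with the block was 3.83 (DESeq2 adjusted p = 0.182).

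Psmd12 (Rpn5, a scaffold subunit of the lid of the 19S particle), on the plus strand of chromosome 11 from 107479528 to 107498036, had no such single library. It was counted 8, 5, 6, 0 and 10 times in Fezf2+ve and 2, 0, 1, 0 and 0 times in Fezf2−ve libraries. The Fezf2+ve libraries other than library 4 all lay above the highest Fezf2−ve library, and library 4 shared its 0 with 3 of them. The level was 42.8 ± 25.4 CPM in Fezf2+ve and 3.57 ± 5.32 CPM in Fezf2−ve libraries (mean ± SD, n = 5 each), and the log2 fold change was 3.54 ± 1.44 (standard error, edgeR adjusted p = 0.998). Leaving out animal 1, 2 or 3 gave log2 fold changes of 4.03, 3.28 and 3.78, and in each case the unadjusted p was no longer under 0.05. The same held for DESeq2 with the block, at 3.38. The highest library held 31.2% of the reads of Psmd12, beside 93.3% for Psmd14.

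The promoters of both genes are shown because these were the members with the smallest p-values. Each runs 5′ to 3′ on the gene's plus strand across the start in RefSeq, build GRCm38.p6, at chr11:107479278-107479577 for Psmd12 and chr2:61711444-61711743 for Psmd14. Capitals mark the core of the antioxidant response element, TGACNNNGC, read on both strands, an element bound by Nfe2l1 and Nfe2l2, of which Nfe2l1 is known to control proteasome genes.
Psmd12: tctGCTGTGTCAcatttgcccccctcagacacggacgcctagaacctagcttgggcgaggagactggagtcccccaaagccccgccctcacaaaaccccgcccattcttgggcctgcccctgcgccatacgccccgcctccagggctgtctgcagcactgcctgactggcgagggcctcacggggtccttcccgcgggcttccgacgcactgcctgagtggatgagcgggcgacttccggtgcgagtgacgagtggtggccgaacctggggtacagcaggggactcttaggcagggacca
Psmd14: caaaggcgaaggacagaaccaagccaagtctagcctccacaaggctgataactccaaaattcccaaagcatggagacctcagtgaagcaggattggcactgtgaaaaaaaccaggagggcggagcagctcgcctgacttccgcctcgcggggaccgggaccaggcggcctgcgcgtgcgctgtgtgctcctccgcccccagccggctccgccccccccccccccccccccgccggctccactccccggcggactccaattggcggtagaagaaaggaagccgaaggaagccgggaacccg
The core occurred once in the Psmd12 window and not in that of Psmd14. Among all RefSeq promoters the share with it was 12.4% (4071 of 32851), beside 14.6% of the proteasome promoters (6 of 41), 16.7% of those of Ube2 genes and 25% of those of Usp genes. The 127 member promoters belonged to 112 of the 139 genes. A match says only that these letters occur in the window.

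Of the 20S core, all 8 alpha-ring genes had reads, 4 passed the filter, and 0 had a p under 0.05. Psma6, an alpha subunit on the plus strand of chromosome 12 from 55384222 to 55418459, was counted 2, 1, 2, 0 and 3 times in Fezf2+ve and 5, 2, 5, 3 and 8 times in Fezf2−ve libraries. It was lower in the Fezf2+ve library of each of the 5 animals, although the ranges overlapped at 2 and 3 reads. The mean level was 11.6 ± 7.19 CPM against 26.6 ± 8.56 CPM (SD, n = 5 each), and the log2 fold change was -1.29 ± 1.09 (standard error). Genes lower in the Fezf2+ve library of all 5 animals made up 2.42% of those tested, and 1.69% were higher in all 5. Among the members 2 were lower in all 5, Psma6 and Usp24, and 0 were higher. Psma3 had the most reads of the ring and was counted 0, 15, 2, 1 and 2 times in Fezf2+ve and 14, 1, 5, 0 and 46 times in Fezf2−ve libraries, where Fezf2−ve library 5 was highest and the groups overlapped. Psma3 shares its locus with 3110056K07Rik, and a read in such a place can be counted on both genes.

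The beta ring carries the cutting sites. Its catalytic subunits had few reads: Psmb5 was counted 1, 0, 1, 1 and 2 times in Fezf2+ve and 2, 1, 0, 0 and 0 times in Fezf2−ve libraries. Psmb6 was counted 4, 0, 1, 1 and 2 times in Fezf2+ve and 0, 1, 2, 1 and 0 times in Fezf2−ve libraries. Psmb7 was counted 1, 0, 1, 0 and 2 times in Fezf2+ve and 7, 1, 2, 1 and 0 times in Fezf2−ve libraries. The groups overlapped for all 3, whose log2 fold changes of 1.14 for Psmb5, 1.09 for Psmb6 and -0.86 for Psmb7 had standard errors of 1.80, 1.72 and 1.64. No library had more than 7 reads on any of them.

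Immunoproteasome subunits replace the catalytic ones in immune cells and under interferon. Psmb8 had 0 reads in all 10 libraries, Psmb9 had 1, in Fezf2−ve library 5, and Psmb10 had 5 spread over 4 libraries. The thymus-specific Psmb11 had 0 reads. None of these 4 genes passed the filter, and levels up to the floor of 3 reads per library cannot be told from absence. The activator subunit Psme1 had 4 reads and Psme2 was counted 0, 1, 4, 0 and 0 times in Fezf2+ve and 1, 1, 8, 0 and 1 times in Fezf2−ve libraries, with library 3 highest in both types. The Fezf2−ve libraries with 446 to 1255 microglial marker reads held 1 read on Psmb8 and Psmb9 together.

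Of the 6 ATPases that unfold substrates 3 passed the filter, with log2 fold changes of 0.59 for Psmc5, which became -0.44 without the block, 1.21 for Psmc2 and 3.09 for Psmc3. The value for Psmc3 was 6.08 without animal 4 and 6.15 after downsampling, both with an unadjusted p under 0.05, 6.52 without the block and 1.20 by DESeq2. Psmc3 (Rpt5), on the plus strand of chromosome 2 from 91054016 to 91059438, was counted 247, 1, 0, 0 and 0 times in Fezf2+ve and 2, 0, 0, 1 and 0 times in Fezf2−ve libraries. Fezf2+ve library 1 held 98.4% of its reads and the remaining libraries overlapped, with a standard error of 2.53. Without animal 1 the gene did not pass the filter. Psmc4 had 31 of its 32 reads in Fezf2+ve library 2.

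Among the 14 19S non-ATPase genes 9 passed the filter. The ubiquitin receptor Psmd4 (Rpn10) was counted 1, 3, 0, 0 and 0 times in Fezf2+ve and 1, 0, 6, 0 and 8 times in Fezf2−ve libraries, which overlapped. The base subunit Psmd2 (Rpn1), which also binds ubiquitin and shuttle proteins, had 3 reads in all, 2 in Fezf2−ve library 1 and 1 in Fezf2−ve library 3. Psmd11 (Rpn6, a lid subunit) was counted 1, 3, 1, 0 and 11 times in Fezf2+ve and 2, 2, 1, 8 and 98 times in Fezf2−ve libraries. In Psmd11, library 5 was the highest of each type and the groups overlapped, at a log2 fold change of -1.47 ± 1.36, which was -0.89 without animal 4, -0.94 without animal 5 and -2.57 without the block. Psme4 (PA200, an activator of the core that acts without ubiquitin) was counted 3, 3, 92, 1 and 4 times in Fezf2+ve and 1, 0, 6, 3 and 0 times in Fezf2−ve libraries. Library 3 was highest in both types, and Psme4 was higher in the Fezf2+ve library of 4 animals. Its log2 fold change was 2.79 ± 1.43, 2.03 without animal 3 and 3.83 without animal 4, where the unadjusted p was under 0.05. The same level was reached by edgeR with 10 CPM asked of 5 libraries (edgeR adjusted p = 0.724) and without the block (edgeR adjusted p = 0.223). DESeq2 with the block reached it too (DESeq2 adjusted p = 0.313).

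Over the 22 tested proteasome genes 13 had positive and 9 had negative log2 fold changes. Their median was 0.37, beside -0.16 over all 7409 genes. It became -0.29 without the block, -0.11 without the filter and -0.24 with at least 10 CPM asked of 5 libraries, so its direction depends on these choices. With 1 animal left out it ranged from 0.099 without animal 1 to 0.48 without animal 2.

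With few exceptions Ube2 genes encode conjugating enzymes, and 31 of the 38 had reads. Of the 22 tested, 7 had positive and 15 negative log2 fold changes with a median of -0.47, which was -0.21 without animal 4 and -1.22 without animal 2, and 0 had an unadjusted p under 0.05 by edgeR with the block. Under other settings of this fit Ube2k had one (library size only, 10 CPM in 5 libraries, without animal 1), as did Ube2g1 without animal 3. Ube2k, which builds K48-linked ubiquitin chains and was first described as a protein bound to huntingtin, had the most reads of the family. On the plus strand of chromosome 5 from 65537245 to 65598989, it was counted 6, 13, 6, 2 and 5 times in Fezf2+ve and 8, 468, 34, 10 and 93 times in Fezf2−ve libraries. Fezf2−ve library 2 held 72.6% of them, Fezf2−ve libraries 3 and 5 also lay above every Fezf2+ve library, and the 2 lowest Fezf2−ve libraries fell within the Fezf2+ve range. The log2 fold change was -2.63 ± 1.29 (standard error, edgeR adjusted p = 0.998), with 4 of 5 animals lower in Fezf2+ve. Without animal 2 it was -1.90, without animal 1 it was -3.38, and without the block it was -4.36 with an edgeR adjusted p of 0.0939.

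The enzymes of K63-linked chains, used in signalling and membrane traffic, are Ube2n and its partners Ube2v1 and Ube2v2. Ube2n was counted 0, 1, 1, 0 and 4 times in Fezf2+ve and 1, 0, 1, 3 and 8 times in Fezf2−ve libraries, which overlapped. Ube2v1 was counted 67, 1, 3, 0 and 8 times in Fezf2+ve and 2, 0, 9, 2 and 0 times in Fezf2−ve libraries. Ube2v2 was counted 1, 1, 1, 0 and 1 times in Fezf2+ve and 5, 0, 111, 0 and 1 times in Fezf2−ve libraries. Each partner thus had 1 dominant library, Fezf2+ve library 1 for Ube2v1 and Fezf2−ve library 3 for Ube2v2, and otherwise overlapped, with log2 fold changes of 2.00 (standard error 2.01) and -1.60 (standard error 1.86). The value for Ube2v1 was 0.55 without animal 1, 0.84 without animal 5, 3.43 without animal 3, 3.39 without animal 4 and 3.08 without the block. Ube2v2 was at -4.14 without the block, -2.45 without animal 2 and -0.99 by DESeq2 with the block. Without animal 3 it did not pass the filter.

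The NEDD8 enzymes were sparse. Ube2m, which carries NEDD8, had 0 reads, and Ube2f, the other NEDD8 enzyme, had 14 reads in Fezf2−ve library 1, 1 in Fezf2−ve library 5 and 0 in the 5 Fezf2+ve libraries. Ube2ql1, on which 7 reads fell, was counted 1, 2, 0, 0 and 0 times in Fezf2+ve and 3, 1, 0, 0 and 0 times in Fezf2−ve libraries, and 7 reads do not show whether the types differ. Ube2e2, the longest gene of the family at 321 kb, was counted 0, 10, 17, 1 and 2 times in Fezf2+ve and 6, 8, 8, 4 and 29 times in Fezf2−ve libraries, and its groups overlapped (log2 fold change -1.26 ± 1.33). This was -0.80 without animal 1, -0.69 without animal 5, -2.17 without animal 3 and -0.66 without the block. The interferon-linked Ube2l6 had 0 reads.

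Usp genes encode the largest class of deubiquitinases, and 47 of the 56 had reads. Of the 31 tested, 13 had positive and 18 negative log2 fold changes with a median of -0.25, and 0 had a p under 0.05. That median was 0.13 without animal 1, and Usp12 had a p under 0.05 without animal 5. Of the 5 Usp genes with the most reads, Usp24, Usp9x and Usp49 each had over 80% of their reads in 1 library. Usp24, on the plus strand of chromosome 4 from 106315980 to 106446613, was counted 1, 3, 1, 1 and 2 times in Fezf2+ve and 9, 3, 1824, 2 and 8 times in Fezf2−ve libraries. Fezf2−ve library 3 held 98.4% of its reads, and the groups met at 2 and 3 reads, yet it was lower in the Fezf2+ve library of all 5 animals once depth was taken into account (log2 fold change -2.31 ± 1.49). Without animal 3 the log2 fold change was -1.28, while without the block it was -7.16 (edgeR adjusted p = 0.0931).

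Usp9x, a large X-linked enzyme needed in neural development, lies on the plus strand of chromosome X from 13070982 to 13173328. It was counted 1, 1, 2, 0 and 1676 times in Fezf2+ve and 1, 3, 5, 99 and 2 times in Fezf2−ve libraries. Fezf2+ve library 5 alone held 93.6% of them and Fezf2−ve library 4 was the next highest, while the other 8 libraries had 0 to 5. Its direction changed with the fit, and the fit gave -0.68 ± 1.95 with the block and 3.63 without it.

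Usp49, a histone deubiquitinase, was counted 3, 1, 650, 34 and 5 times in Fezf2+ve and 1, 4, 62, 3 and 7 times in Fezf2−ve libraries, so library 3 of each type was highest. Usp36, an enzyme of the nucleolus, was counted 2, 0, 95, 0 and 2 times in Fezf2+ve and 5, 3, 3, 0 and 121 times in Fezf2−ve libraries, with 1 high library in each type. Usp32 was the most even of the 5 Usp genes with the most reads, at 2, 27, 9, 64 and 23 in the Fezf2+ve libraries and 11, 1, 14, 25 and 51 in the Fezf2−ve libraries. The groups overlapped for all 3 genes, and their log2 fold changes of 1.73, -1.55 and 0.50 had standard errors of 1.45, 2.07 and 1.27. Without the block Usp36 was at -0.11, without animal 5 it was at 0.20, and Usp32 was at -0.26 without animal 2. The value of Usp49 was 0.87 without animal 3, 0.89 without animal 4 and 3.60 without the block. Usp14, which trims chains at the proteasome, had 7 reads, of which 1 was in a Fezf2+ve library, and it overlaps Thoc1. Usp46, which acts on synaptic receptors, and the interferon-induced Usp18 had 1 read each.

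**Figure D2:**
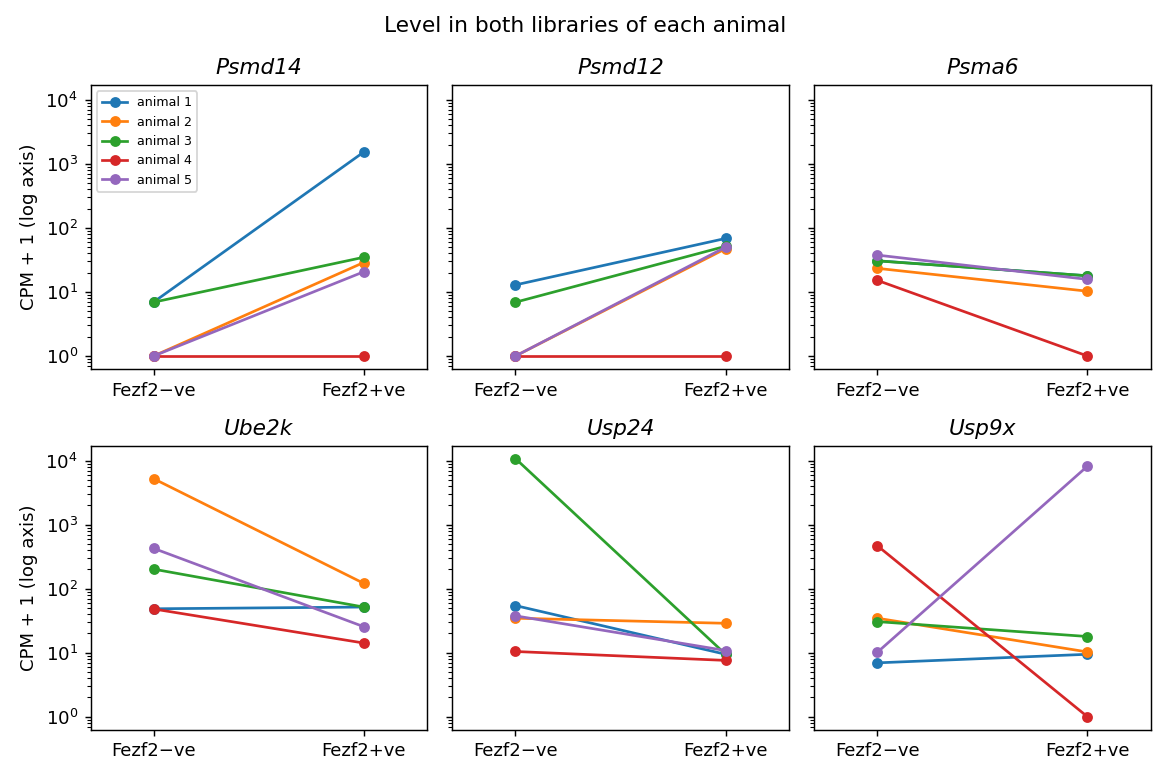
Level of 6 genes as CPM + 1 on a log axis in the Fezf2−ve (left) and Fezf2+ve (right) library of each animal, joined by a line per animal. For Psmd12 all lines but that of animal 4 rise, for Psma6 and Usp24 all 5 fall, and Usp9x has lines in both directions.

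Reads on the 3 families made up different shares of each library. The proteasome share was 0.415% in Fezf2+ve library 1 (490 reads) and 0.00528% in Fezf2+ve library 4 (8 reads). The mean was 0.130 ± 0.165% in Fezf2+ve and 0.0488 ± 0.0254% in Fezf2−ve libraries (SD, n = 5 each). The difference of 0.081 was smaller than the SD of the differences within animals, 0.159, and 3 of 5 animals were higher in Fezf2+ve. Without animal 1 the difference was 0.0131, and without the 10 genes with the most reads of each library it was 0.186. Fezf2+ve library 4 had reads on 31 of the 139 genes and Fezf2−ve library 3 on 82. Those 2 libraries also had the fewest and the most genes detected in all, 3990 and 7918.

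Ube2 genes held 0.0609 ± 0.0417% of the reads in Fezf2+ve and 0.181 ± 0.225% in Fezf2−ve libraries, and Usp genes held 0.369 ± 0.404% and 0.308 ± 0.488% (SD, n = 5 each). The Ube2 share was highest in Fezf2−ve library 2, where Ube2k held 90.7% of the Ube2 reads, and the Usp share in Fezf2−ve library 3, where Usp24 held 91.7% of the Usp reads. In Fezf2+ve library 1, which had the highest proteasome share, Psmc3 held 50.4% of the proteasome reads, and the share without it was still 0.206%. The Ube2 difference of -0.120 was -0.0332 without animal 2, and the Usp difference of 0.0610 was -0.109 without animal 5 and 0.189 without animal 3. Without the 10 genes with the most reads of each library these differences were -0.194 and 0.371. That setting takes Usp24 itself out of Fezf2−ve library 3 and leaves the other members in, so the latter value depends on which genes it removes. With the top Usp gene of each library set aside, it was 0.0792 ± 0.0561% in Fezf2+ve and 0.0674 ± 0.0244% in Fezf2−ve libraries.

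**Figure D3:**
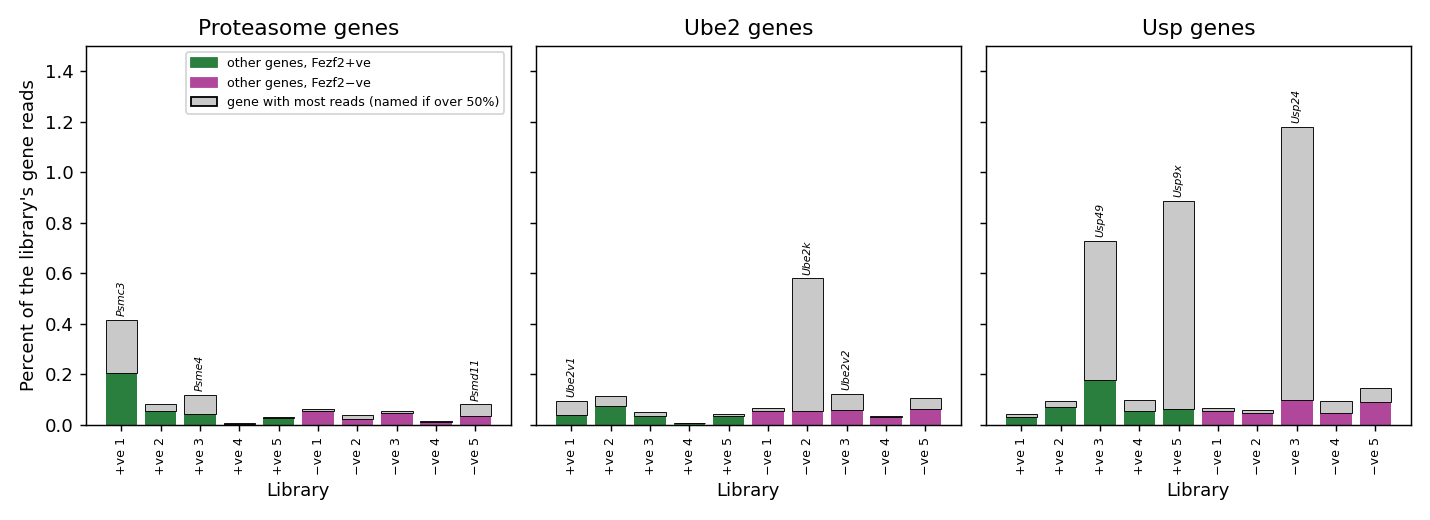
Percent of each library's gene reads that fell on proteasome, Ube2 and Usp genes, with the gene with the most reads (grey, named where it held over 50% of the family's reads) stacked on the other genes of the family (green for Fezf2+ve, purple for Fezf2−ve). The tallest bars, 1.18% on Usp genes in Fezf2−ve library 3 and 0.888% in Fezf2+ve library 5, are mostly Usp24 and Usp9x.

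Genes with longer loci had more reads. Across the 139 genes the Spearman rho of reads with length on the genome was 0.498, beside 0.618 across 23338 genes of the table with a RefSeq position. These are correlations across genes, which share the same libraries and are not independent replicates. Proteasome genes had a median length of 10.1 kb, Ube2 genes 30.2 kb and Usp genes 48 kb, so read totals of different genes are not compared as levels. No ranking by CPM per kb is given, because for short genes such as Psmb6, with 0 to 4 reads per library, it would rest on single reads.

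**Figure D4:**
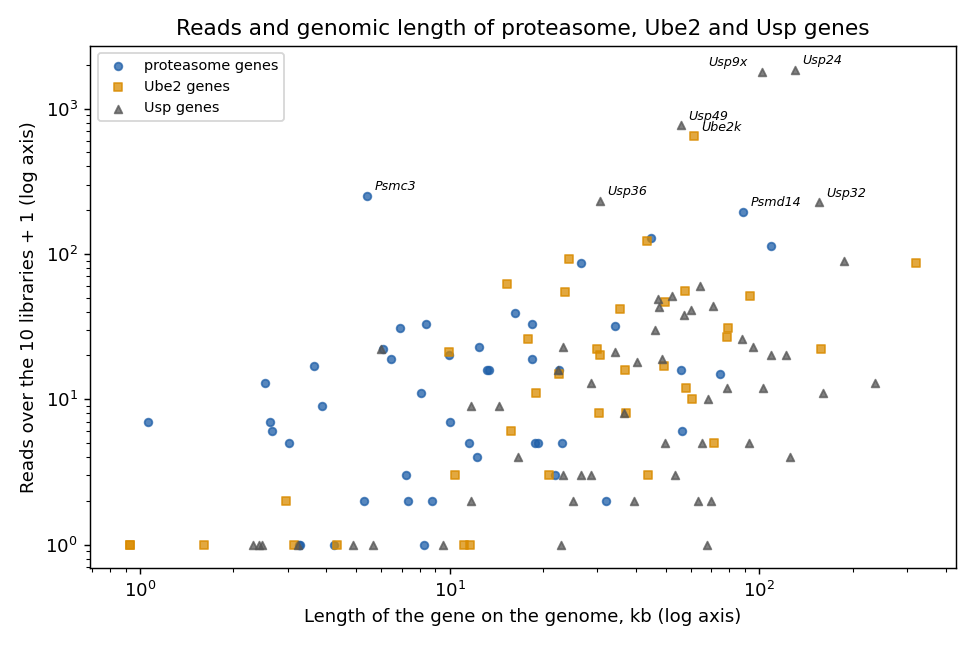
Reads over the 10 libraries + 1 against length of the gene on the genome in kb, both on log axes, for the 139 genes, with the family as colour and shape. The genes with the most reads are named, and Psmc3, at 5.42 kb, is the shortest of them.

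Concentration of reads in 1 library was general. Among the 75 tested members 33 had over 50% of their reads in a single library (44.0%), beside 44.3% of all tested genes. The largest fitted changes were found on both sides of this line, with Psmd12 among the evenly spread genes and Psmd14, Psmc3 and Psme4 among the concentrated ones.

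**Figure D5:**
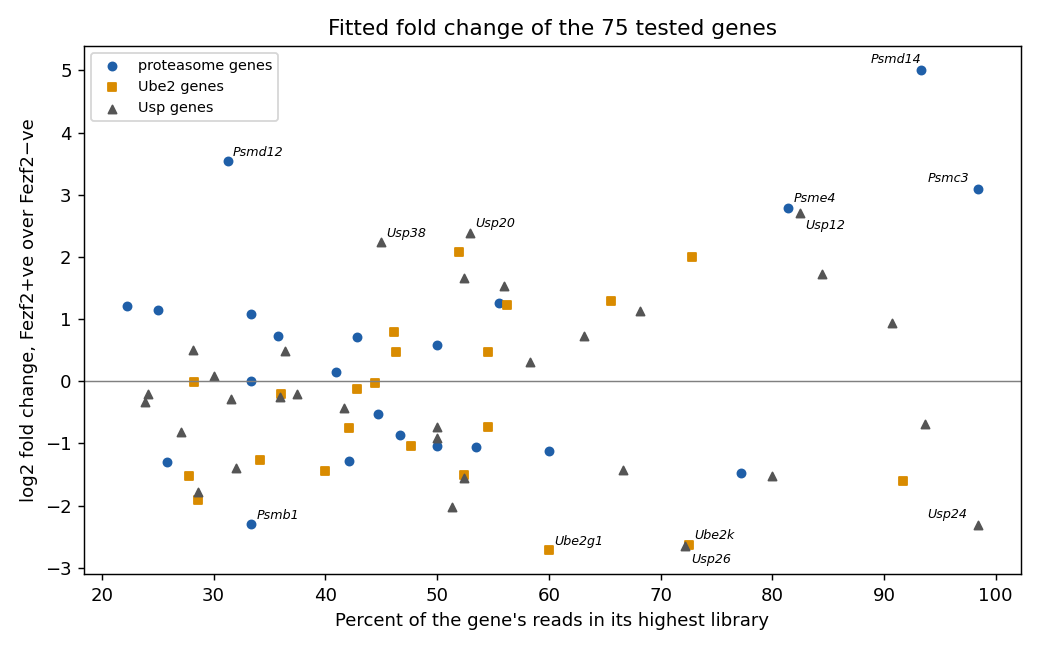
Fitted log2 fold change (Fezf2+ve over Fezf2−ve IT-PNs) of the 75 tested genes against the percent of each gene's reads in its highest library. Psmd12 has the largest change among genes with under 40% of their reads in 1 library, and Psmd14, at 93.3%, has the largest of all.

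The other genes of the pathway were read from lists of ubiquitin genes, E1 enzymes, proteasome assembly factors, shuttle factors, E3 ligases and further deubiquitinases. Of 102 listed symbols 98 were in the table and 65 were tested. With the block 0 of these had an unadjusted edgeR p under 0.05 in either direction, beside 3.89% of all tested genes. The median log2 fold change was -0.20, close to that of all tested genes. The polyubiquitin gene Ubb, with reads in all 10 libraries, was counted 38, 36, 39, 5 and 26 times in Fezf2+ve and 84, 20, 63, 16 and 6 times in Fezf2−ve libraries, and the groups overlapped (log2 fold change 0.15 ± 1.02). Without the block edgeR called 2 of these genes, the ligase subunit Fbxw11 and the deubiquitinase Tnfaip3, both lower in Fezf2+ve. DESeq2 with the block called 1, the deubiquitinase Stambpl1 (DESeq2 adjusted p = 0.0944, log2 fold change -3.84 ± 2.15 and adjusted p = 0.998 by edgeR with the block). Over all tested genes the shares called were 3.77% without the block and 1.32% by DESeq2 with the block. Beside these shares, the calls among the 65 tested genes are not read as a trait of the pathway. Tnfaip3 had 1746 of its 1780 reads in Fezf2−ve library 1 and Fbxw11 had 561 of 636 in Fezf2−ve library 4.

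The 20 members with no read were Psmb8, Psmb11, Psmd10, Psmc3ip, Ube2d2b, Ube2dnl1, Ube2dnl2, Ube2l6, Ube2m, Ube2s, Ube2t, the genes Usp17la, Usp17lb, Usp17lc, Usp17ld and Usp17le, and Usp27x, Usp35, Usp43 and Usp51. A further 44 had reads but did not pass the filter. Psmc3ip and Usp6nl match the symbols but are not a proteasome subunit and a Usp enzyme, Ube2cbp (also Ube3d, tested and counted with the Ube2 genes) is a ligase, and Ube2d-ps is a pseudogene. The locus of 31 members overlapped another counted gene, among them Ube2e1 with Nkiras1, Usp16 with Cct8, Usp34 with Ahsa2 and Ube2d-ps with Urgcp, and their values are uncertain for that reason. Psme2b, Ube2d2b and the Usp17l genes have near-identical relatives, so reads may have been split among them or counted on each.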

How the data were processed

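The authors used bcl2fastq 1.8.4 per the submitters' processing notes. They split the reads by inline barcode with sabre and trimmed them with the FASTX-Toolkit per the study's methods, mapped them to mm10 with TopHat2 2.1.1 and counted them on RefFlat genes with bedtools 2.26.0 multiCov; the use of strand is not given in the sources used here, and a read overlapping several genes was counted on each. They deposited raw counts without normalization, which are the only values used. Their table of a DESeq2 1.10.1 comparison in R 3.2.5 (means, fold changes, standard errors, Wald statistics, p-values and adjusted p-values) and their counts of spike-in RNA were not used.

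The filter kept genes that reached 10 CPM in 2 or more libraries. edgeR 4.0.16 (R 4.3.3) scaled these by TMM and compared types by its quasi-likelihood F test with a term for the animal, and an adjusted p at or below 0.1 was a call. The standard error is the size of the log2 fold change over the square root of F. The animal pairs the libraries because the sample records say that both types were sorted from one animal; without the block 279 genes were called. After each type's mean was taken off, both libraries of an animal correlated across genes at a mean r of 0.0291 (-0.0267 to 0.097, 5 pairs). The first fit used edgeR's legacy quasi-likelihood form (294 genes and 2 members at an unadjusted p under 0.05). After these counts had been seen it was replaced by the newer form (288 genes and 2 members), to match an earlier processing of these data. Alternatives were DESeq2 1.42.0 with the block, other scalings and filters, downsampling to 89138 reads, read shares without the 10 genes with the most reads of each library, and leaving out each animal.

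Members and lists were chosen with earlier results of these data known. The genes named are those with an unadjusted p under 0.05, those called without the block or by DESeq2, the 5 with the most reads in each family, a list fixed by role, and those of one direction in all 5 animals; Psmc2, Psmc4, Psmc5, Ube2g1, Usp12, members named for counts of 0 or overlap, and pathway genes named singly were chosen after their values had been seen. Not every gene and list picked this way is described. Positions were those of RefSeq on GRCm38.p6 and strands those of GENCODE, each matched for 139 of 139 symbols, and RefSeq promoters were found for 112. The fits were tested on simulated counts, where a first limit on the number of recovered genes proved too strict for genes with few reads and was replaced by one on genes with at least 100 reads. The limit was applied only at the smaller of the simulated spreads between libraries, with no animal effect. It therefore does not show how well changes are found in the members, whose median was 11 reads. Python 3.11.15 with pandas 2.3.3 and scipy 1.17.1 was used otherwise.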

Additional observations from a re-analysis of the deposited data

Results flagged for a closer look

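In groups of 5 libraries, 8 of the 38 examined had 1 library farther from the others than Dixon's critical ratio of 0.71 allows. A chance rate of about 1 in 20 holds for independent groups with normally distributed values. The genes were picked from these same data, partly for having many reads, and the family shares contain them. The count of 8 thus cannot be set against that rate. On the scale log2(CPM + 1) after TMM, Fezf2+ve library 1 stood high for Psmc3 at 10.98, Fezf2+ve library 3 for Psme4 at 9.315 and Fezf2−ve library 3 for Usp24 at 13.11. Fezf2+ve library 4 stood low, at 0.0, for both Psmd12 and Ube2v2. Among the read shares, that of proteasome genes was high in Fezf2+ve library 1 at 0.4148%, that of Ube2 genes in Fezf2−ve library 2 at 0.5789% and that of Usp genes in Fezf2−ve library 3 at 1.179%.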

How the results depend on the processing

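Without the replicate block, edgeR called 279 genes and 3 members (Psmd14, Ube2k and Usp24), and 1345 genes and 10 members had an unadjusted p under 0.05. DESeq2 with the block called 98 genes. At a p under 0.01 there were 48 genes and 0 members. Leaving out 1 animal at a time gave 175 to 270 genes and 1 to 4 members with a p under 0.05. Over the left-out animals the median log2 fold change ran from -0.68 to 0.13 for the Usp genes. It ran from -1.22 to -0.21 for the Ube2 genes and from 0.099 to 0.48 for the proteasome genes. Directions were compared for 16 of the genes named for their p-value, a call, their reads or 1 direction in all 5 animals. Genes named only by role or after their values had been seen were left out, such as Psmc5, at -0.44 without the block. Of the 16, 12 kept their direction under every alternative that gave a value. Of 202 alternative values, all from refits of the same counts, 195 had the direction first reported. The exceptions were Usp9x, at 3.63 without the block and -2.17 to 0.76 over the left-out animals, Psma3 at -2.26 to 0.10, Usp32 at -0.26 to 1.04 and Usp36 at -3.48 to 0.20. The cause was not tested. Without the 10 genes with the most reads of each library, the difference in read share of all members went from 0.0220 to 0.364. This was within 1 SD of the differences between animals. The direction of this difference rested on single animals, as it was -0.0620 without animal 1 and -0.130 without animal 5. Leaving out animal 2, 3 or 4 gave 0.125, 0.142 and 0.0352. The median of the proteasome genes changed sign as reported, by less than 1 SD. The newer quasi-likelihood form used throughout was chosen after the counts of the legacy form had been seen, and the legacy form was then kept as an alternative. Psmd14, Psmc3 and Ube2v2 gave no value with 10 CPM asked of 5 libraries, nor Psmc3 and Ube2v2 without animal 1, nor Ube2v2 without animal 3, whose Fezf2−ve library held 91.7% of its reads. Many of these values rest on genes with few reads in most libraries, and the part of this in the changes was not tested.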

Other observations

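Marker lists of cell types were read in the same libraries, and their part in the values was not tested. Blood genes (5 of 5 with reads, most on Hbb-bs) had 103, 11, 2, 0 and 0 reads in Fezf2+ve and 759, 294, 46, 61 and 2 in Fezf2−ve libraries. Hba-a1 and Hba-a2 had identical counts in every library, so these sums may count the same reads on both. Astrocyte genes (6 of 7, most on Slc1a2, Gfap at 0) had 88, 819, 76, 255 and 94, and 120, 21, 15, 803 and 9. Genes of oligodendrocyte precursors (3 of 3, most on Vcan) had 189, 233, 81, 8 and 921, and 151, 24, 121, 18 and 244. Endothelial genes (4 of 4, most on Flt1) had 22 reads in Fezf2+ve and 21 in Fezf2−ve libraries, and interneuron genes (3 of 6, most on Gad2, with Pvalb, Vip and Slc32a1 at 0) had 1 and 10. Genes of excitatory and IT neurons (9 of 10, most on Camk2a, Tbr1 at 0) had 71, 47, 31, 4 and 18, and 17, 10, 561, 11 and 9. The list meant for other layer 5 types (3 of 4 with reads, Crym at 0) had 6, 3, 31, 1 and 1, and 560, 5, 665, 3 and 7. Foxp2 held 1280 of these reads, while Bcl11b had 1 and Fezf2, whose reporter defines the Fezf2+ve type, had 1. These sums are therefore counts of Foxp2 and do not show that other layer 5 types were present.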
